A study of Mus musculus with 8 samples.

Results

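The comparison described here set peritoneal macrophages that received both C498 and LPS against macrophages that received vehicle only. C498 is a small-molecule compound, which the study examined as an inhibitor of JAK/STAT and NFκB signaling, and LPS is bacterial lipopolysaccharide. The cells came from the peritoneal cavity of male C57BL/6 mice after thioglycollate, an irritant that draws macrophages into the cavity, so all groups are elicited and not resident macrophages. The study held 4 groups of 2 samples each. The vehicle group (NC) received DMSO, the LPS group received LPS at 100 ng/ml for 4 h, the C498 group received C498 at 15 µM, and the C498+LPS group received the same dose of C498 0.5 h before the same LPS exposure. No group carried a genetic change. The 2 C498+LPS samples and the 2 NC samples, 4 of 8 in all, made up the comparison, and the single-treatment groups were used to place each change. Genes were members when their mean level over the 8 samples was at least 1 TPM (a transcript level corrected for gene length and scaled to the same total in each sample), which left 12189 of 55801 genes.

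LPS binds CD14 and the TLR4/MD-2 receptor and activates NFκB, MAP kinases and IRF3. These first switch on cytokine and chemokine genes together with feedback inhibitors such as IκBα and A20, and then interferon-stimulated genes through autocrine type I interferon and JAK/STAT signaling. Immediate-early genes (the FOS, EGR and NR4A transcription factors) and heat shock genes answer a wider range of signals, including growth factors, calcium, cAMP and proteotoxic stress.

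Genes above 0 numbered 17528 to 18975 per sample. Pearson's r of log2(TPM + 1) across all tested genes, which are not independent replicates, was 0.962 to 0.981 within groups and 0.891 to 0.902 between C498+LPS and NC samples. TPM keep no read depth, so the counting precision of each value is unknown. No source used here says whether the 2 samples of a group came from separate animals or cultures, and p-values therefore measure only the spread between these samples, which may be technical. All 16 macrophage markers passed the filter, and their summed level was 28701 to 30468 TPM in NC and 18735 to 20522 TPM in C498+LPS. Lyz2 alone, at 15989 and 15984 TPM in NC and 9242 and 7831 in C498+LPS, made up the largest part of this sum and of its fall. Fibroblast markers (10 genes, led by the collagens Col1a1 and Col1a2) summed to 156 to 196 TPM in NC, 189 to 214 in LPS, 642 to 760.4 in C498 and 631 to 928 in C498+LPS. Mesothelial markers (8 genes) summed to 5.58 to 6.41 TPM in NC and 18.95 to 31.2 in C498+LPS. B cell markers (7 genes) summed to 18.0 to 25.0 and 41.7 to 120.2 TPM, and T and NK cell markers (11 genes) to 5.37 to 5.85 and 6.33 to 10.9 TPM. The neutrophil sum (10 genes) was 118.9 to 170.0 TPM in NC and 85.6 to 98.7 in C498+LPS, with S100a8 at 75.9 and 128 TPM in NC and 79.5 and 71.0 in C498+LPS, and the granule gene Elane, which precursors express, at 0 in all 8 samples. Replicate 2 of C498+LPS had the higher fibroblast, mesothelial, B cell and T and NK cell sum of its pair. In bulk RNA, a change in the number of cells of a type cannot be told apart from a change in RNA per cell, and the part of these other cells in the results that follow was not tested.

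**Figure D1:**
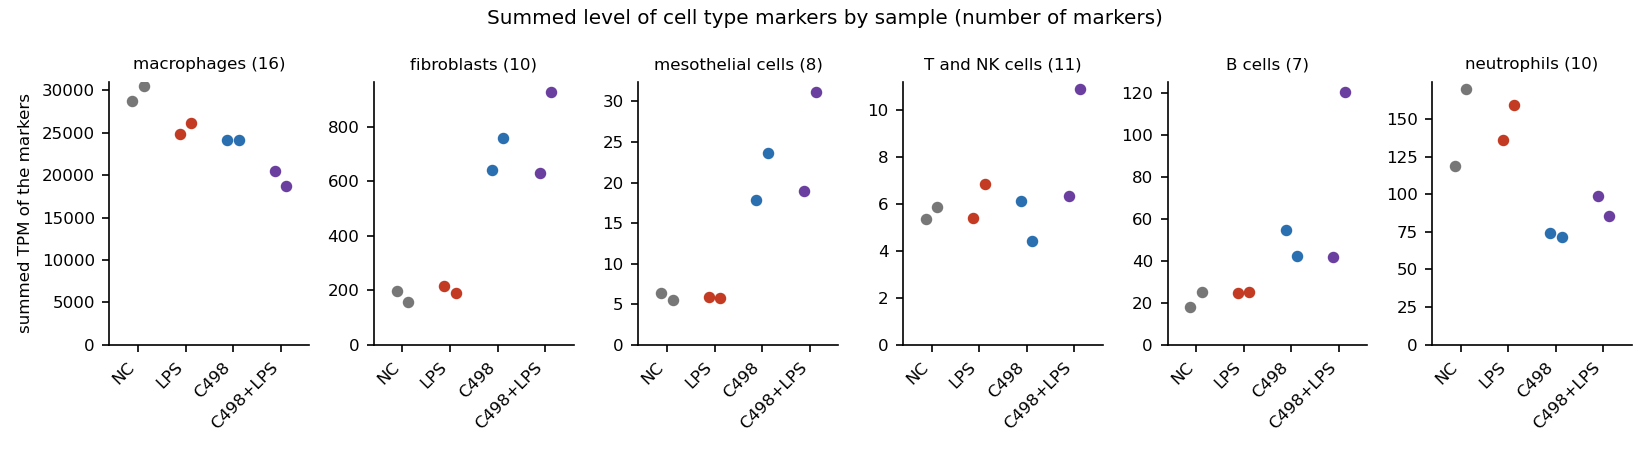
Summed TPM of the marker genes of 6 cell types in each of the 8 samples (one point per sample, groups along the x axis). Fibroblast sums lay at 642 to 760.4 TPM with C498 and 631 to 928 with C498+LPS, all above the NC range of 156 to 196. Macrophage sums, of which Lyz2 is the largest part, were lowest in C498+LPS at 18735 to 20522.

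The combined state was marked by higher levels of 19 of 22 tested cytokines and 12 of 19 tested chemokines, by higher levels of 21 of 28 immediate-early genes, and by lower levels of 6 of 16 macrophage markers. Relative to NC, 1115 of 12189 genes (9.15%) were higher and 1104 (9.06%) were lower at a fold change of 2 or more and a Benjamini-Hochberg adjusted p of 0.05 or less (limma on log2(TPM + 1)). In every called gene the C498+LPS samples did not overlap the NC samples, which the thresholds largely fix with 2 samples a group. Over all tested genes the median change was -0.15 on the log2 scale, and an unadjusted p under 0.05 was found for 6174. Of the higher genes, 267 had an NC mean under 1 TPM and 15 were listed at 0 in both NC samples. Of the lower genes, 124 had a C498+LPS mean under 1 TPM and 12 were listed at 0 in both C498+LPS samples. The counts of each gene list against NC are to be read beside these shares of all genes, 9.15% higher and 9.06% lower. Log2 changes below are differences of mean log2(TPM + 1) and understate the change of genes with low levels.

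Each called gene was placed by whether LPS alone and C498 alone passed the same thresholds against NC. On their own, LPS raised 677 genes (5.55%) and lowered 814 (6.68%), and C498 raised 687 (5.64%) and lowered 166 (1.36%). These comparisons share the NC samples with the combined one, so the classes are a description. Among the 1115 higher genes, 132 were also called higher with both single treatments, 286 with LPS only, 429 with C498 only and 264 with neither. Among the 1104 lower genes, 66 were called lower with both, 466 with LPS only, 61 with C498 only and 510 with neither. The C498-only class thus held 38.5% of the higher and 5.53% of the lower genes, and the LPS-only class 25.7% and 42.2%. Only 5 genes were called against a single treatment. These 5, chosen after their values were seen, were Vegfa, Tcp11l2, Psrc1 and Phlda3, higher in C498+LPS, and Fbxo32, lower in C498+LPS.

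**Figure D2:**
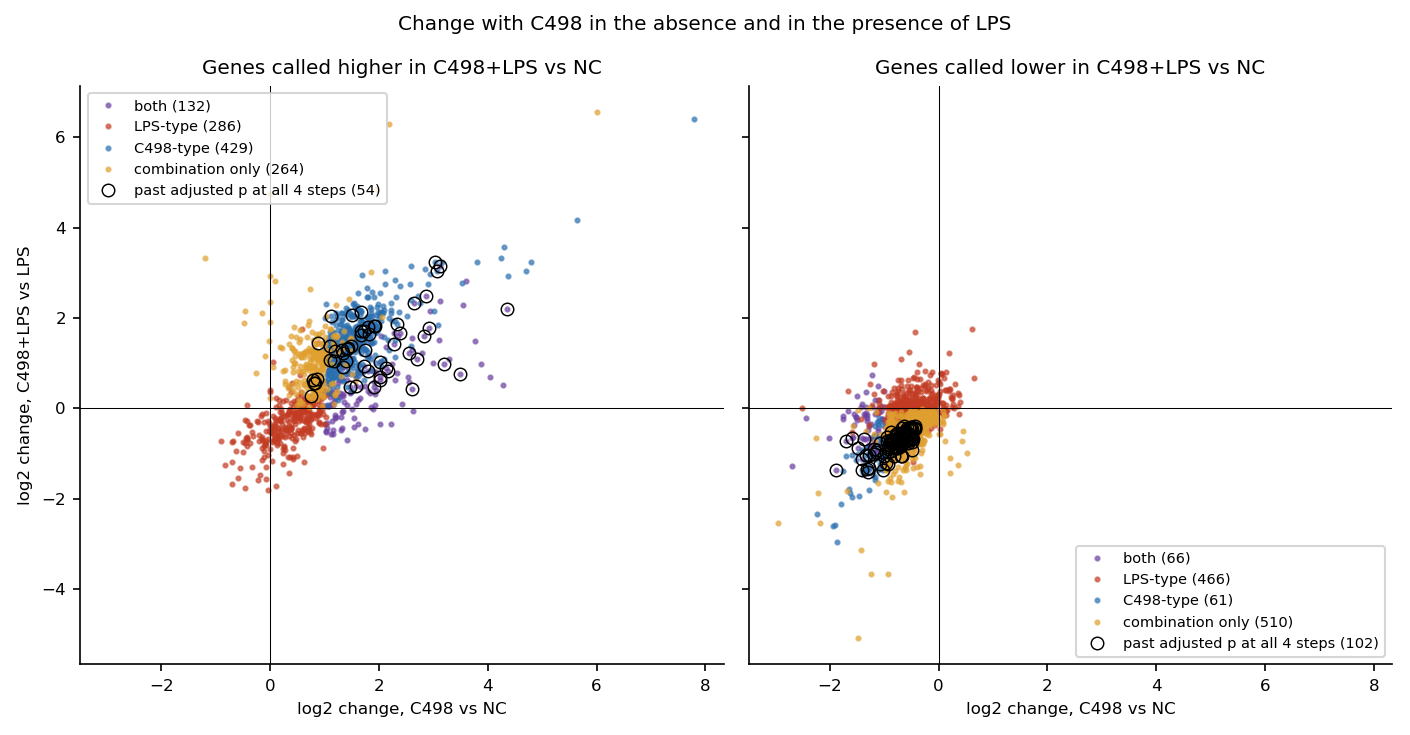
Log2 change of C498 against NC (x axis) and of C498+LPS against LPS (y axis) for the called genes, coloured by class, with genes that added up circled. The class rule uses C498 against NC, C498+LPS against NC and LPS against NC, so it largely fixes where each class lies on both axes. The medians of the 429 higher C498-only genes are 1.43 (x) and 1.44 (y), and those of the 61 lower ones -1.20 and -1.12.

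Inflammatory cytokines had the largest median increase of the gene lists. Of 22 tested inflammatory cytokines 19 were called higher and the rest were not called, with a median log2 change of 3.64 against -0.15 for all genes. Set against LPS alone at an adjusted p of 0.05 or less, without a fold threshold, 6 of the 22 were higher and 5 lower in C498+LPS, where 1107 (9.08%) and 938 (7.7%) of all tested genes were. Il6 (chr5:30013114-30019981, + strand, GRCm38, GENCODE M21), which encodes interleukin-6, stood at 1.05 and 1.80 TPM in NC, 532 and 512 with LPS, 8.29 and 9.18 with C498, and 424 and 401 with C498+LPS. The increase over NC was 7.43 log2 units (SE 0.155, adjusted p = 6.35e-07, limma), and the C498+LPS samples lay between those of LPS and those of C498, overlapping neither. Tnf, encoding tumor necrosis factor, stood at 50.9 and 49.9 TPM in NC, 2157 and 2190.0 with LPS, 116 and 107 with C498, and 1588 and 1347 with C498+LPS, a log2 change of 4.83 (SE 0.0988, adjusted p = 6.35e-07). C498+LPS also lay below LPS for Tnf (log2 change -0.57, adjusted p = 0.00961), while for Il6 that step was -0.34 (adjusted p = 0.186). Il1b, encoding interleukin-1β, rose from 19.1 and 15.9 TPM to 1443 and 1137 TPM, and Il1a from 52.9 and 39.8 to 1603 and 1231 TPM. The neutrophil growth factor gene Csf3 (log2 change 3.42), Il12a (4.17) and Il12b (3.86), which encode the subunits of interleukin-12, and the anti-inflammatory genes Il10 (1.31) and Il1rn (2.18) were also called higher. Il18 (0.75), Tgfb1 (-0.03) and Ebi3 (-0.99) were the tested cytokines that were not called.

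Chemokines guide leukocytes into tissue. Of 19 tested, 12 were called higher and 1 lower (median log2 change 2.97), and their summed level was 4363 to 4907 TPM in NC and 24983 to 26838 TPM in C498+LPS. Against LPS alone, 6 were higher and 6 lower, beside 9.08% and 7.7% of all genes. Cxcl2, a neutrophil chemoattractant, lay above LPS alone in both samples, with 41.5 and 29.5 TPM in NC, 2678 and 2679.7 with LPS, 755 and 646 with C498, and 4235 and 3503 with C498+LPS. Its log2 change against NC was 6.74 (SE 0.171, adjusted p = 1.46e-06), and against LPS 0.52 (adjusted p = 0.0821). Cxcl10, an interferon-driven T cell chemoattractant, stood at 23.5 and 26.6 TPM in NC, 2716 and 2744 with LPS, and 2011 and 2324 with C498+LPS, a log2 change of 6.38 against NC (SE 0.1198, adjusted p = 5.03e-07). Neither Cxcl10 sample of C498+LPS reached the lower LPS sample, but the step from LPS was -0.34 with an adjusted p of 0.105. Ccl3, which recruits monocytes, reached 6133 and 5291 TPM from 212 and 189.5 TPM. Pf4, the platelet factor 4 gene that resting macrophages also express, was the 1 chemokine called lower (-1.44), and Ccl6 (-0.72), Ccl8 (-0.39), Ccl9 (-0.12), Ccl12 (-0.47), Ccl24 (-0.07) and Cxcl16 (-0.13) were not called.

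**Figure D3:**
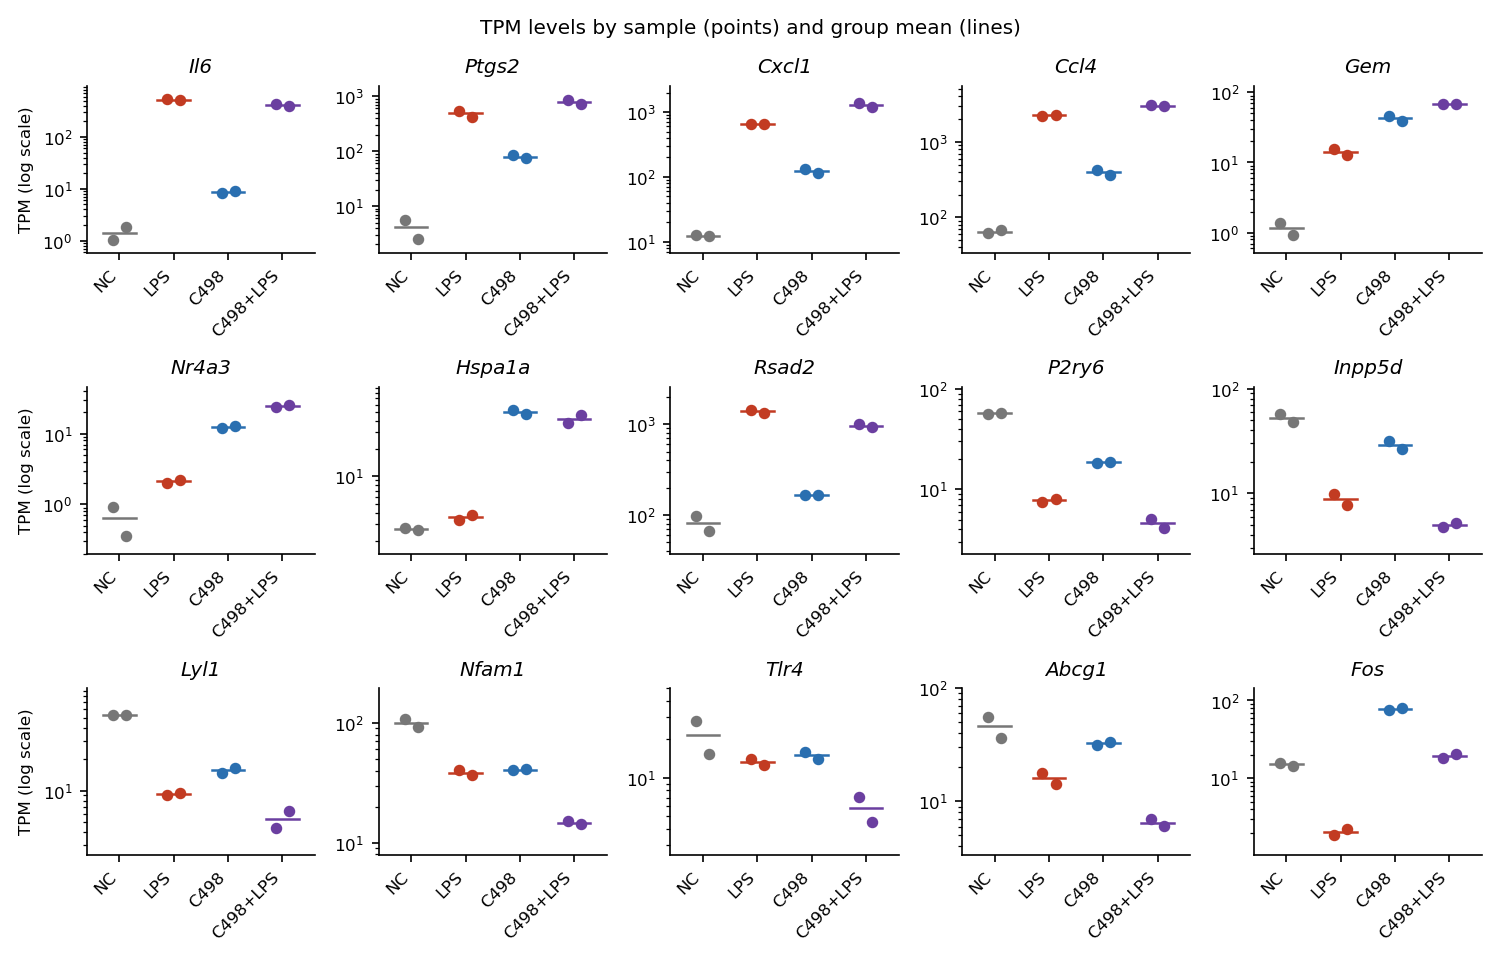
TPM of 15 genes in each of the 8 samples on a log scale, one panel per gene and one point per sample. Il6 and Ptgs2 in C498+LPS sit near the LPS samples, Hspa1a near the C498 samples, Gem and Nr4a3 above every other group, and P2ry6, Inpp5d and Nfam1 below every other group.

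Of 19 genes of the NFκB subunits and their feedback inhibitors, 14 were called higher and the rest were not called (median log2 change 1.98). They included the subunits Rel (2.48), Nfkb1 (2.27), Nfkb2 (1.98) and Rela (1.06) and the inhibitors Nfkbia (2.26), Nfkbiz (3.86) and Tnfaip3, which encodes A20 (3.03, SE 0.181, adjusted p = 4.53e-05). Tnfaip3 stood at 33.0 and 22.5 TPM in NC, 199 and 164 with LPS, 103 and 96.4 with C498, and 241 and 221 with C498+LPS. Each treatment alone raised it, and the C498+LPS samples lay above those of both, although the step from LPS did not pass (0.35, adjusted p = 0.244). Socs3, the feedback inhibitor of JAK/STAT receptors, was also called higher (2.34). Traf1, an adaptor of TNF receptors, rose from 22.2 and 21.2 to 150.3 and 135 TPM and was lower than with LPS alone, at 258 and 251 TPM (step -0.83, adjusted p = 0.00215). Against LPS alone, 1 of the 19 was higher and 2 were lower, near the 9.08% and 7.7% of all genes. The receptors and adaptors upstream were called at about the shares of all genes (9.15% higher and 9.06% lower). Of 20 Toll-like receptor signaling genes, 2 were called higher, Cd14 (2.88) and Tlr2 (1.44), and 2 lower, Tlr4 (-1.69) and Tlr13 (-1.54), and against LPS alone 9 were lower and 1 higher, beside 7.7% and 9.08% of all genes. Tlr4, the LPS receptor, stood at 27.8 and 15.3 TPM in NC, 14.1 and 12.6 with LPS, 16.0 and 13.9 with C498, and 7.10 and 4.53 with C498+LPS (SE 0.296, adjusted p = 0.00399), below every other sample although neither treatment alone was called.

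Interferon-stimulated genes were lower in the combined state than with LPS alone in 23 of 33 cases, beside 7.7% of all genes, and the others did not pass that test (median step -0.72). Against NC, of 33 tested, 15 were called higher, beside 9.15% of all genes, and the rest were not called (median log2 change 0.69), while LPS alone raised 22 (median 1.58) and the median for C498 alone was -0.22. Rsad2, which encodes the antiviral protein viperin, stood at 96.8 and 66.9 TPM in NC, 1432 and 1345 with LPS, 164.5 and 164.2 with C498, and 1011 and 926 with C498+LPS (3.57, SE 0.161, adjusted p = 1.35e-05). Cmpk2, a nucleotide kinase next to it in the genome, stood at 69.8 and 56.7 TPM in NC, 927 and 891 with LPS, 53.1 and 59.8 with C498, and 495 and 489 with C498+LPS (2.95, SE 0.117, adjusted p = 7.15e-06). Both genes kept C498+LPS above NC and below LPS without overlap, and the step from LPS was called in direction for Cmpk2 (-0.88, adjusted p = 0.00346) and not for Rsad2 (-0.52, adjusted p = 0.0690). Of the transcription factors on the list, Irf1 was called higher (1.84), while Irf7 (-0.40) and Stat2 (0.15) were not called. Guanylate-binding proteins, which attack pathogen vacuoles, were called higher with Gbp5 (3.94) and Gbp3 (1.66).

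Most immediate-early genes were higher with C498, both without and with LPS. Of 28 tested, 21 were called higher (median log2 change 1.69), against 6 higher and 4 lower with LPS alone (median 0.39) and 23 with C498 alone (median 2.04). In C498+LPS, 24 of the 28 were higher than with LPS alone, beside 9.08% of all genes (median step 1.24). The orphan nuclear receptor gene Nr4a1 stood at 0.97 and 1.27 TPM in NC, 1.44 and 1.79 with LPS, 105 and 104 with C498, and 42.8 and 49.8 with C498+LPS (4.48, SE 0.156, adjusted p = 5.11e-06). Egr1, a zinc finger factor induced by MAP kinases, stood at 1.86 and 1.82 TPM in NC, 4.18 and 4.68 with LPS, 55.5 and 49.6 with C498, and 51.6 and 54.8 with C498+LPS (4.25, SE 0.134, adjusted p = 3.69e-06). Nr4a1 was lower with C498+LPS than with C498 in both samples, whereas the Egr1 samples of these 2 groups overlapped. Fosl1 (3.36), Fosl2 (1.67), Junb (1.82) and the MAP kinase phosphatase genes Dusp1 (3.09), Dusp5 (2.85), Dusp2 (1.77) and Dusp4 (1.67) were called higher as well. Fos (0.33), Jun (0.01), Egr2 (-0.28), Klf2 (-0.54), Klf10 (0.02), Ier2 (0.49) and Btg2 (0.95) were not called.

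Of the heat shock genes, 5 of 16 were called higher, beside 9.15% of all genes, and the rest were not called (median 0.64). Of the 16, 11 were higher than with LPS alone, beside 9.08% of all genes (median step 0.69). Hspa1a, an inducible HSP70 gene, stood at 2.74 and 2.59 TPM in NC, 3.36 and 3.79 with LPS, 51.8 and 47.9 with C498, and 37.5 and 46.8 with C498+LPS (3.55, SE 0.155, adjusted p = 1.22e-05). Its neighbor Hspa1b (3.65) is a near-identical copy, so reads of the pair may be divided arbitrarily between them. The small heat shock proteins Cryab, from 23.7 and 22.8 to 162 and 283 TPM (3.15), and Hspb1, from 9.20 and 10.6 to 64.2 and 114 TPM (2.99), and the HSP90 gene Hsp90aa1 (1.42) were also higher. Hspa1a, Hspa1b, Cryab and Hspb1 belonged to the C498-only class. Of 21 genes of the ATF4 and unfolded protein responses, beside 9.15% higher and 9.06% lower of all genes, 5 were called higher, among them the mTORC1 inhibitor Ddit4 (2.57), the eIF2α phosphatase subunit Ppp1r15a (2.13) and the endoplasmic reticulum chaperone Hspa5 (1.36), and 2 lower, Trib3 (-1.02) and Sdf2l1 (-1.01). Of 19 NRF2 targets, 2 were called, a share near that of all genes (9.15% higher), the cystine transporter Slc7a11 (2.92) and the thioredoxin reductase Txnrd1 (1.75), both higher, and Hmox1 (0.61) and Nqo1 (-0.59) were not.

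Growth factor and matrix remodelling genes rose in 12 of 20 cases and fell in 1 (median 1.44). Inhba, the activin A subunit, stood at 7.45 and 4.68 TPM in NC, 103 and 71.4 with LPS, 113 and 90.1 with C498, and 209.9 and 138 with C498+LPS (4.63, SE 0.285, adjusted p = 5.07e-05). The C498+LPS samples of Inhba lay above every other sample, but neither the step from LPS (0.98, adjusted p = 0.0571) nor that from C498 (0.75) passed. The EGF receptor ligands Hbegf (2.99), Ereg (2.63) and Areg (2.25), the matrix protein gene Thbs1 (2.09) and the collagenase gene Mmp13 (1.25) were called higher, and Mmp8 (-1.08), a neutrophil collagenase, was called lower. Fibroblast markers rose in the same samples, with 7 of 9 tested called higher. Col1a1, encoding type I collagen, stood at 77.5 and 53.9 TPM in NC, 77.5 and 61.4 with LPS, 247 and 294 with C498, and 219.5 and 326 with C498+LPS (2.03, SE 0.242, adjusted p = 0.000835). The collagen levels were thus high in both groups that received C498 and overlapped between NC and LPS. Mesothelial markers had 2 of 4 tested called higher, Krt19 (1.82) and Wt1 (1.55), both in the C498-only class. Of 3 dendritic cell markers tested, 2 were called higher, and Ccr7, which guides migration to lymph nodes, went from 11.4 and 9.82 to 46.8 and 112 TPM (2.67). The other, Zbtb46, went from 0.89 and 0.31 to 2.20 and 3.41 TPM (1.25) and was not called without NC replicate 2 (0.99) or without C498+LPS replicate 2 (adjusted p = 0.0717).

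Enzymes of inflammatory mediators divided. Of 15 genes for nitric oxide, itaconate and prostaglandin synthesis, 6 were called higher and 4 lower (median 0.61). Ptgs2 (chr1:150100031-150108227, + strand), which encodes the inducible cyclooxygenase COX-2, stood at 5.64 and 2.54 TPM in NC, 549 and 425 with LPS, 83.8 and 73.8 with C498, and 856 and 719.9 with C498+LPS (7.34, SE 0.281, adjusted p = 6.48e-06). Both C498+LPS samples were above both LPS samples, but that step did not pass (0.70, adjusted p = 0.141). Nos2, the inducible nitric oxide synthase gene, went from 2.54 and 2.32 to 88.7 and 81.0 TPM (4.64), and Ptges, the prostaglandin E synthase gene, to 142 and 114 TPM, below LPS alone at 274 and 262 TPM (step -1.07, adjusted p = 0.00295). The leukotriene and thromboxane genes Alox5 (-1.22), Alox5ap (-1.04) and Tbxas1 (-1.19) were among those called lower. Among 18 G protein-coupled receptors, 4 were called higher and 5 lower. The higher ones were the chemerin-binding receptor gene Ccrl2 (4.44), the nicotinic acid receptor gene Hcar2 (3.83) and the adenosine receptor genes Adora2a (1.98) and Adora2b (1.65). The lower ones included P2ry6 (-3.40), the prostacyclin receptor gene Ptgir (-1.75), S1pr1 (-1.31) and the complement receptor gene C3ar1 (-1.14).

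Among the lower genes, Tmem86a, a lysoplasmalogenase gene, fell furthest among genes with an established symbol, from 87.6 and 95.9 TPM in NC to 5.88 and 5.97 TPM in C498+LPS (-3.74, SE 0.136, adjusted p = 5.11e-06), and stood at 6.33 and 7.85 TPM with LPS. Of 16 macrophage markers, 6 were called lower, among them the Fc receptor gene Fcgr1 (-1.61), the growth factor receptor gene Csf1r (-1.59) and the complement genes C1qa (-1.48), C1qc (-1.22) and C1qb (-1.08). Cd14 was the 1 called higher, while Cd68 (-0.27), Mrc1 (-0.12), Mertk (-0.19) and Adgre1 (-0.77), which encodes F4/80, were not called. Against LPS alone, 9 of the 16 were lower and 2 higher, beside 7.7% and 9.08% of all genes. Abcg1, a cholesterol exporter driven by LXR receptors, went from 55.8 and 36.7 to 6.93 and 6.08 TPM (-2.63) and was also below LPS alone, at 17.9 and 14.2 TPM (step -1.18, adjusted p = 0.0116). Of 9 LXR genes, 2 were called lower, Abcg1 and the receptor gene Nr1h3 (-1.55), and the rest were not called. Of 17 PPAR and fatty acid oxidation genes, beside 9.06% lower and 9.15% higher of all genes, 3 were called lower, Pparg (-1.13), Ucp2 (-1.16) and Fabp4 (-1.21), and 2 higher, Angptl4 (2.71) and Fabp3 (1.65).

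Lysosomal genes had a median of -0.51, and 18 of 19 were below 0, and 2 were called lower, a share near the 9.06% of all genes, the lysosomal regulator Tfeb (-1.89) and the acid lipase gene Lipa (-1.07). Lipa was short of the 2-fold threshold without NC replicate 1 (-0.84), without C498+LPS replicate 2 (-0.93) or with samples centred on their median gene (-0.98). Tfeb stood at 40.2 TPM in both NC samples, 9.10 and 11.1 with LPS, 20.1 and 24.1 with C498, and 10.4 and 9.90 with C498+LPS, so the combined samples lay within the range of LPS alone and below NC and C498. Of 12 TGF-β response genes, beside 9.06% lower and 9.15% higher of all genes, 3 were called lower, Tgfbi (-2.34), the receptor gene Tgfbr2 (-1.52) and the inhibitory SMAD gene Smad6 (-1.52), and 1 higher, Tgif1 (1.17). Neutrophil markers had 2 of 4 tested called lower, Retnlg (-1.94) and Csf3r (-1.20). Csf3r, the G-CSF receptor gene, stood at 36.5 and 35.2 TPM in NC, 38.6 and 36.1 with LPS, 18.2 and 18.9 with C498, and 17.0 and 13.2 with C498+LPS.

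**Figure D4:**
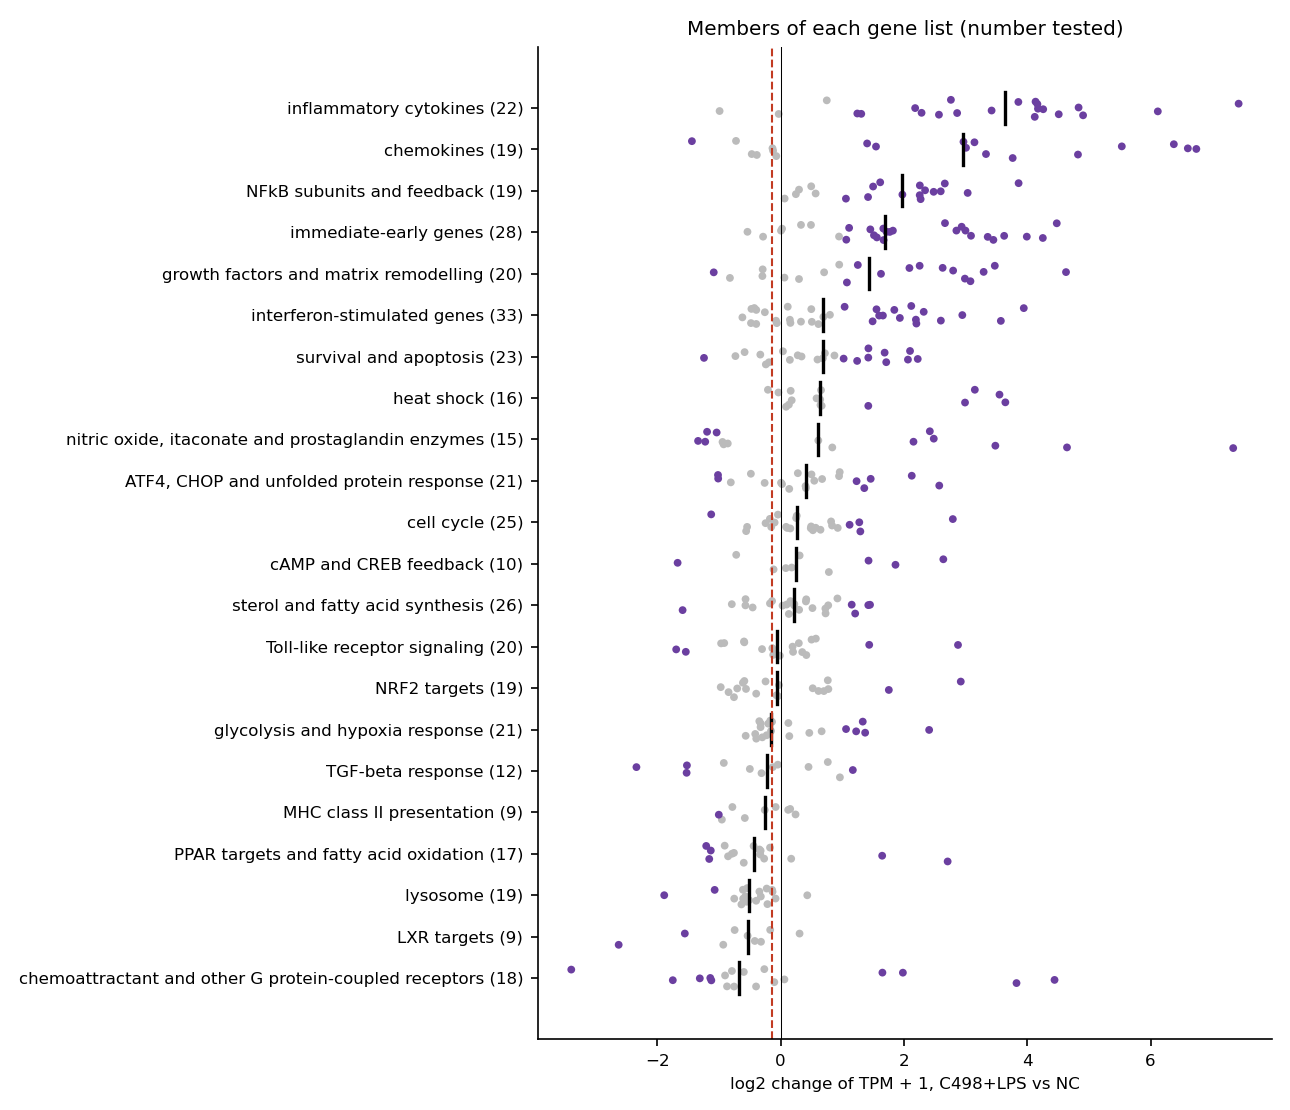
Log2 change of C498+LPS against NC for each tested member of 22 gene lists (points, called genes in purple, others in grey), with the list median as a black bar and the median of all genes (-0.15) as a red dashed line. The cytokine and chemokine medians (3.64 and 2.97) lie highest, and the G protein-coupled receptor and lysosome medians (-0.68 and -0.51) are among those below the line.

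Genes where both treatments added up were defined by all 4 steps between the groups. They were called in C498+LPS against NC, and moved in that direction with an adjusted p of 0.05 or less for LPS against NC, C498 against NC, C498+LPS against LPS and C498+LPS against C498, with no fold threshold at the single steps. By these steps LPS alone raised 1200 genes (9.84%) and lowered 2409 (19.8%), C498 alone raised 1132 (9.29%) and lowered 754 (6.19%), C498 on top of LPS raised 1107 (9.08%) and lowered 938 (7.7%), and LPS on top of C498 raised 550 (4.51%) and lowered 1430 (11.7%). With the 2-fold threshold, C498 on top of LPS raised 657 (5.39%) and lowered 266 (2.18%). By these criteria 54 genes added up in the higher direction and 102 in the lower direction. In all 54, both NC samples lay below, and both C498+LPS samples above, every sample of the single treatments, and the reverse order held in all 102. With 2 samples a group the rule all but fixes this order, so it is no separate result. The higher set held 33 genes called with both single treatments, 4 with LPS only, 15 with C498 only and 2 with neither. The lower set held 62 called with neither, 19 with LPS only, 8 with C498 only and 13 with both.

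The membership of both sets depended on single libraries. Without LPS replicate 1 or 2 the sets held 20 and 21 or 19 and 24 genes (higher and lower), without C498 replicate 1 or 2 they held 14 and 13 or 14 and 16, and without C498+LPS replicate 1 or 2 they held 31 and 47 or 11 and 24. Without NC replicate 1 or 2 they held 78 and 117 or 61 and 120. With a 2-fold threshold at every step, 13 and 3 genes remained.

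The increases had a median log2 change of 2.98 in C498+LPS, against 1.54 for LPS alone and 1.77 for C498 alone, and the sum of the single log2 changes had a median of 3.34. The combined log2 change was below that sum in 44 of 54 genes and above it in 10, and the interaction of LPS and C498 passed the test in 11, all with a combined change below the sum. Across all tested genes, the interaction passed in 57 (0.468%). On the TPM scale the combined rise exceeded the sum of the single rises in 51 of 54 genes, with a median of 141% of that sum. The exceptions, named after their values were seen, were Plk2, Nfkbid and Pim1. Rises that add on the log2 scale always exceed the sum of the single rises in TPM. The genes were also chosen for C498+LPS levels above both single treatments, so the TPM count largely restates the scale and the rule.

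Several secreted signals were among the genes that added up. Cxcl1 (ENSMUSG00000029380, chr5:90891241-90893115, + strand), a neutrophil chemoattractant, stood at 12.7 and 12.1 TPM in NC, 659 and 665 with LPS, 131 and 114 with C498, and 1407 and 1207 with C498+LPS. Its log2 change was 6.61 (SE 0.109, adjusted p = 5.03e-07), and the combined level was above LPS alone by 0.98 (adjusted p = 0.00195). Ccl4, a chemoattractant of monocytes and T cells, stood at 61.1 and 67.2 TPM in NC, 2195 and 2297 with LPS, 430.1 and 365 with C498, and 3057 and 2974 with C498+LPS (5.53). For Cxcl1 and Ccl4, LPS made the larger single change. Ccl7, a monocyte chemoattractant, went from 51.8 and 61.8 to 722 and 845 TPM (3.76). Lif, an interleukin-6 family cytokine, stood at 0.53 and 0.52 TPM in NC, 8.75 and 5.15 with LPS, 9.20 and 11.98 with C498, and 24.1 and 27.6 with C498+LPS (4.13). Ifng, encoding interferon-γ, stood at 0.88 and 1.15 TPM in NC, 5.65 and 5.22 with LPS, 12.7 and 14.7 with C498, and 25.9 and 48.0 with C498+LPS (4.17, SE 0.278, adjusted p = 7.29e-05), and Il17a, encoding interleukin-17A, went from 0.68 and 0.20 to 20.1 and 27.9 TPM (4.12). Both are chiefly products of T and NK cells. Of the 11 T and NK cell markers, 7 were under 1 TPM in every sample, and the other 4 (Cd3e, Trac, Lck and Nkg7) were at most 4.65 TPM.

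Intracellular and surface genes added up as well. Gem, a small GTPase that restrains calcium channels, stood at 1.38 and 0.93 TPM in NC, 15.5 and 12.8 with LPS, 46.5 and 39.6 with C498, and 68.0 and 68.3 with C498+LPS (5.01, SE 0.166, adjusted p = 4.74e-06). The nuclear receptor gene Nr4a3 stood at 0.92 and 0.36 TPM in NC, 2.03 and 2.20 with LPS, 12.2 and 12.9 with C498, and 24.1 and 25.3 with C498+LPS. Its log2 change of 3.99 was close to the sum of the single changes, 4.01. For Gem and Nr4a3, C498 made the larger single change. Ccrl2 went from 78.2 and 67.0 to 1627 and 1566 TPM (4.44), Hcar2 from 8.88 and 10.4 to 157 and 143 TPM (3.83), and Cd14 from 236 and 252 to 1797 and 1794 TPM (2.88). Of the 20 growth factor and matrix genes, 5 were in this set, beside 54 of all 12189 tested genes. Among the 5 were the coagulation initiator F3, from 1.86 and 0.98 to 24.4 and 26.6 TPM (3.47), and the protease inhibitor genes Serpinb2 (3.29) and Timp1 (2.80). Timp1 is also made by fibroblasts, whose markers were higher in both groups that received C498.

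**Figure D5:**
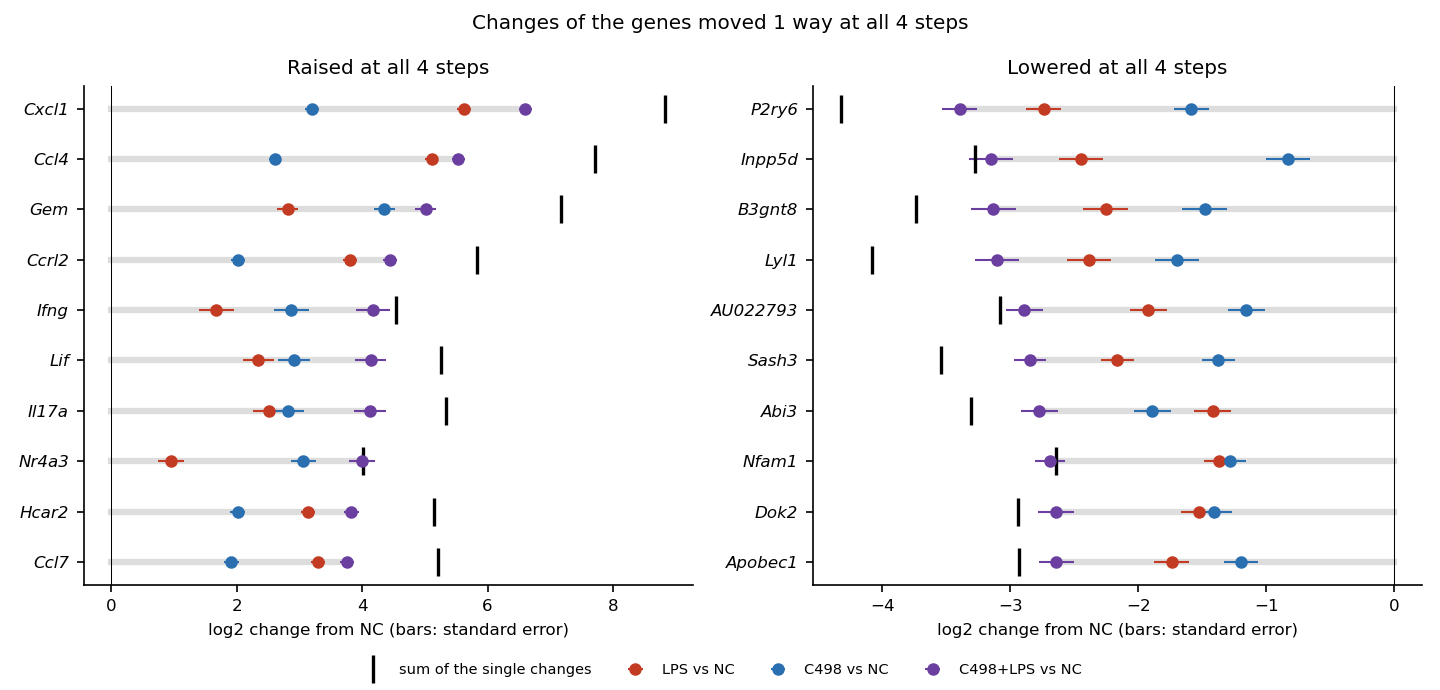
Log2 change against NC with LPS, C498 and C498+LPS (points, bars give the SE from limma) for the 10 genes that added up with the largest increase and the 10 with the largest decrease, with the sum of the single changes as a black tick. The combined change exceeds each single change in every gene shown, as the rule for these genes requires. For Cxcl1 the combined change (6.61) lies well short of the sum.

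Promoter sequence is shown for 6 of the genes that added up, as the 250 bases before the RefSeq start on the strand of the gene (build GRCm38.p6). The RefSeq table used here held a promoter for 31 of the 54 higher and 76 of the 102 lower genes, fewer than 80% of each, so no share of matches is given for either set. Capitals mark matches, on either strand, to the AP-1 motif (TGANTCA), the CRE motif (TGACGTCA) or the kappa B motif of NFκB. The NR4A motif NBRE (AAAGGTCA) and the E-box (CACGTG) were also searched. Of all 32851 promoters in the table, 6.75% held the AP-1 motif, 1.55% the CRE motif, 1.34% the NBRE motif, 6.02% the E-box and 3.90% the kappa B motif. Cxcl1, Lif, F3, Inpp5d and Nfam1 are genes described here by their values, and Nfkbid, which encodes the NFκB inhibitor IκBNS, was added for its sequence after its values were seen. The sequences are Cxcl1 at chr5:90890995-90891244 (+ strand), Lif at chr11:4257318-4257567 (+ strand), F3 at chr3:121723287-121723536 (+ strand), Nfkbid at chr7:30422156-30422405 (+ strand), Inpp5d at chr1:87620062-87620311 (+ strand) and Nfam1 at chr15:83023139-83023388 (− strand). Nfkbid and Nfam1 each had 3 starts in the table, of which the one with the most matches is shown, and the sequences were chosen with the matches known. For both, the window shown lies inside the gene as GENCODE M21 gives it, with its start at chr7:30421732 for Nfkbid and chr15:83033306 for Nfam1.
Cxcl1: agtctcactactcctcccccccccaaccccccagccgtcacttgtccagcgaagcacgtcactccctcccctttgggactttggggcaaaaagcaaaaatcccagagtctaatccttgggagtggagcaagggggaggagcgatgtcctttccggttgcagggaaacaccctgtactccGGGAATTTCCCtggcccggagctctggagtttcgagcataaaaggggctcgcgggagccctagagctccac
Lif: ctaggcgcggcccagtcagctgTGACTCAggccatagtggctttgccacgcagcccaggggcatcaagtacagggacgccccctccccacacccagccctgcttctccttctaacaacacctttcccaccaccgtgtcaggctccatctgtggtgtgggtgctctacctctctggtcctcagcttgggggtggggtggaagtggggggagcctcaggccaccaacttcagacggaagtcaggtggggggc
F3: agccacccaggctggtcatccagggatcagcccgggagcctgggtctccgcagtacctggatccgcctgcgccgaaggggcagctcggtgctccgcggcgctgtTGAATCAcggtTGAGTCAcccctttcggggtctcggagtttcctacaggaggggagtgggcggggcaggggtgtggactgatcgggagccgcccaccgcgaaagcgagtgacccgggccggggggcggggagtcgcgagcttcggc
Nfkbid: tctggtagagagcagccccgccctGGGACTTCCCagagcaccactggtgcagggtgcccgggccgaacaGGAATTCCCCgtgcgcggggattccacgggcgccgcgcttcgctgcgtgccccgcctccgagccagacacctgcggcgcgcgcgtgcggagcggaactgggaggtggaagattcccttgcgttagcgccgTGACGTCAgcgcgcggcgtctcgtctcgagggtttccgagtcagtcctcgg
Inpp5d: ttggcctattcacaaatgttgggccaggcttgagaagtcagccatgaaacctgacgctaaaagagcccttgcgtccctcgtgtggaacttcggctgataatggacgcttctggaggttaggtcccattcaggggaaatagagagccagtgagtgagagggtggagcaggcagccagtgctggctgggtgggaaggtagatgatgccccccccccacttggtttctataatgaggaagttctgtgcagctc
Nfam1: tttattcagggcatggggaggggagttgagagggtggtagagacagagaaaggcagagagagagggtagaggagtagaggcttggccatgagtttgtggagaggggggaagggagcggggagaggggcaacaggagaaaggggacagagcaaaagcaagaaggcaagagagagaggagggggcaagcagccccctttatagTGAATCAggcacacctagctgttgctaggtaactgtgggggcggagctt
The run of capitals in Cxcl1 holds 2 overlapping kappa B matches, the first starting at position -71. Positions are counted from the RefSeq start of the window shown. Lif held 1 AP-1 match at -228, and F3 held 2 at -146 and -135. Nfkbid held kappa B matches at -226 and -181 and a CRE match at -51. Nfkbid itself rose from 10.7 and 9.48 TPM to 52.7 and 51.1 TPM (2.26), with 28.3 and 29.7 TPM for LPS and 39.5 and 35.9 for C498. Of the genes that fell, Nfam1 held an AP-1 match at -49 from its internal start, and Inpp5d held none of the 5 motifs in this window. Ifng and Nr4a3, which rose, also held none, so matches and their absence were found in both directions. A match is a string of letters and not an occupied site, and binding was not measured.

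The genes that fell by both treatments had a median log2 change of -1.58 in C498+LPS, and the sum of the single changes had a median of -1.52. The combined log2 fall was larger than the sum of the single falls in 43 of 102 genes and smaller in 59. On the TPM scale the combined fall was smaller than the sum of the single falls in 101 of 102 genes, with a median of 77.7% of that sum. Falls that add on the log2 scale always give a TPM fall smaller than the sum, so this count largely restates the scale. P2ry6 (ENSMUSG00000048779, chr7:100937630-100974649, − strand), a receptor for extracellular UDP that promotes phagocytosis, stood at 56.9 and 58.2 TPM in NC, 7.50 and 8.01 with LPS, 18.3 and 18.7 with C498, and 5.06 and 4.10 with C498+LPS (-3.40, SE 0.138, adjusted p = 8.23e-06). Inpp5d (chr1:87620312-87720507, + strand), which encodes SHIP-1, a phosphatase that opposes PI3K signaling, stood at 57.6 and 47.5 TPM in NC, 9.89 and 7.76 with LPS, 31.5 and 26.8 with C498, and 4.77 and 5.25 with C498+LPS (-3.15, SE 0.172, adjusted p = 2.91e-05). Lyl1, a basic helix-loop-helix factor of blood cells, went from 52.5 and 53.3 to 4.38 and 6.32 TPM (-3.10). In these 3 genes LPS alone gave most of the fall and C498 on top of LPS a further one.

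Further genes of the lower set had larger falls with C498 alone or with LPS alone, or similar ones. Nfam1, an immune receptor with an activation motif, stood at 109 and 92.8 TPM in NC, 40.0 and 36.7 with LPS, 40.2 and 41.4 with C498, and 15.2 and 14.2 with C498+LPS. Its log2 change of -2.69 lay beside a sum of -2.65. The steps of C498 without and with LPS, both used by the rule for this set, were -1.28 and -1.33. Dok2, an adaptor that dampens receptor signaling, went from 37.9 and 43.8 to 5.59 and 5.77 TPM (-2.64), with 13.02 and 13.95 TPM for LPS and 13.8 and 15.7 for C498. Abi3, a regulator of the actin cytoskeleton, went from 64.7 and 78.8 to 9.06 and 10.1 TPM (-2.77), and Sash3, an adaptor of blood cells, from 40.1 and 38.3 to 4.55 and 4.64 TPM (-2.85), with -2.16 for LPS alone and -1.38 for C498 alone. The RNA-editing enzyme gene Apobec1, which edits apolipoprotein B mRNA, stood at 378 and 294 TPM in NC, 106 and 93.3 with LPS, 139 and 151 with C498, and 52.6 and 52.8 with C498+LPS (-2.64). B3gnt8, a glycosyltransferase gene, went from 24.8 and 29.1 to 2.28 and 2.08 TPM (-3.13), with -2.26 for LPS alone and -1.48 for C498 alone. Nr1h3, encoding the oxysterol receptor LXRα, stood at 59.6 and 63.5 TPM in NC, 33.4 and 36.7 with LPS, 32.5 and 35.3 with C498, and 19.8 and 20.8 with C498+LPS (-1.55, SE 0.110, adjusted p = 8.99e-05). Neither treatment alone reached a 2-fold change in Nr1h3, and the combined samples lay below all others.

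Genes called only in the combination were 264 higher and 510 lower. Most had smaller changes of the same sign with each treatment: the single changes were both positive in 190 of the 264 and both negative in 471 of the 510. Their median log2 changes were 1.25 (0.32 with LPS and 0.81 with C498) and -1.17 (-0.71 and -0.54). Csf1r, the receptor for the macrophage growth factor M-CSF, stood at 355 and 272 TPM in NC, 182 and 208 with LPS, 249 and 209 with C498, and 117 and 89.9 with C498+LPS (-1.59, SE 0.181, adjusted p = 0.000696). The combined samples of Csf1r were below all 6 others, and those of LPS alone and C498 alone lay in between. Hamp, which encodes the iron hormone hepcidin, was listed at 0 in NC and C498 and at 1.71 and 0 TPM with LPS, and stood at 16.3 and 8.05 TPM with C498+LPS. The small nucleolar RNA gene Snora73a was listed at 0 in all 6 other samples and at 35.5 and 18.9 TPM with C498+LPS. The pseudogene Rpl35a-ps6 stood at 4.98 and 7.39 TPM and at no more than 0.14 elsewhere, and its reads may be shared with the parent ribosomal protein gene. Hamp, Snora73a and Rpl35a-ps6, and Atp2b4 below, passed the filter on low values only through C498+LPS. Their place in this class is therefore partly set by the filter. Several of the largest changes in this class had C498+LPS samples far apart. Atp2b4, a calcium pump gene, stood at 1.82 and 28.4 TPM with C498+LPS (2.86) and was not called when any 1 of the 6 other libraries was left out (adjusted p from 0.0757 to 0.132). The same held for Iqschfp, at 16.1 and 1.39 TPM (adjusted p from 0.0575 to 0.0978), which stood at 5.09 and 3.85 TPM with LPS alone, within the C498+LPS range. Among the lower genes, Ctla2b went from 5.36 and 7.25 to 0.23 and 1.10 TPM (-2.17) and Tmem273 from 11.3 and 5.72 to 0.38 and 0.45 TPM (-2.69).

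Some genes called with LPS alone were not called in the combination. LPS alone had raised 72 such genes and lowered 45, and in each C498+LPS was called in the other direction against LPS and was not called against NC. Fos, the AP-1 subunit gene, stood at 15.9 and 14.3 TPM in NC, 1.89 and 2.27 with LPS, 76.3 and 80.3 with C498, and 18.1 and 20.5 with C498+LPS (0.33, SE 0.139, adjusted p = 0.0959). Mknk2, a kinase of the translation factor eIF4E, stood at 59.0 and 60.0 TPM in NC, 10.4 and 9.49 with LPS, 150.3 and 145 with C498, and 61.6 and 63.0 with C498+LPS (0.06, SE 0.0956, adjusted p = 0.615). In both genes the treatments moved the level in opposite directions. Cxcr4, the CXCL12 receptor gene, followed the same course and ended at 35.6 and 46.8 TPM against 77.2 and 62.8 in NC (-0.76). Gpr84, a receptor for medium-chain fatty acids, was raised by LPS to 87.9 and 82.0 TPM, lowered by C498 to 2.12 and 3.07 TPM from 16.5 and 12.9 in NC, and stood at 9.04 and 5.98 TPM with C498+LPS (-0.90). Gpr84 was called lower against NC without NC replicate 2 (-1.07, adjusted p = 0.0278) and without C498+LPS replicate 1 (-1.16, adjusted p = 0.0202). Pdgfrb, a growth factor receptor gene of stromal cells, stood at 0.58 and 0.47 TPM in NC, 9.63 and 8.03 with LPS and 1.97 and 1.62 with C498+LPS. Its change of 0.87 against NC was under 2-fold with a pseudocount of 1 TPM, whereas with a pseudocount of 0.1 TPM it was called higher (1.6, adjusted p = 0.00723). Unlike the other fibroblast markers, Pdgfrb was highest with LPS alone. Ifit1bl1, an interferon-stimulated gene, went from 22.2 and 25.0 TPM with LPS to 5.52 and 4.98 TPM with C498+LPS. For Pdgfrb, Ifit1bl1, Gpr84 and Cxcr4 the adjusted p against NC was itself under 0.05 (0.0154 to 0.0243), and the changes were short of 2-fold.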

How the data were processed

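Total RNA of 8 samples, 2 in each of 4 groups, was sequenced as paired-end libraries on a NovaSeq instrument. The authors deposited gene levels as TPM, made per the submitters' processing notes with fastp, HISAT2, StringTie and RSEM, whose versions, genome build and annotation are not given in the sources used here, and tested genes with DESeq2. The table held 8 sample columns, which were used, and 4 columns of group means, which were not. Raw counts were not analysed here. Genes with a mean of at least 1 TPM over the 8 samples were fitted as log2(TPM + 1) with limma 3.58.1 (R 4.3.3) over all 8 samples, with 1 mean per group and a variance trend, and p-values were Benjamini-Hochberg adjusted over all tested genes. The study's thresholds were used to call a gene: 2-fold or more, with an adjusted p no higher than 0.05. The fit was tested on simulated data. Groups came from the sample labels.

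The members, gene lists and tests were chosen with earlier results of these data known. Genes were named by rule: the 12 largest called changes in each direction, the 10 largest that added up, the 6 largest called only in the combination or changed by LPS alone, and 4 per list, leaving out predicted-gene names. Some genes that these rules select are not reported here. Further list members were named after their values were seen. Alternatives were another pseudocount, filters, scalings, fits and thresholds, a replicate block, and leaving out each sample. Of the tested genes 11874 had a GENCODE M21 entry, used for coordinates, and 296 had no symbol. Promoters came from RefSeq (GRCm38.p6).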

Additional observations from a re-analysis of the deposited data

Results flagged for a closer look

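From the 155 named genes, 28 are reported here in which the LPS effect differed with and without C498. The test was limma's interaction term with Benjamini-Hochberg adjustment over all tested genes (adjusted p from 0.00310 to 0.0478). Of all 12189 tested genes, 57 (0.468%) passed with an interaction of 2-fold or more. The named genes were picked largely by the size of their changes in these same data, so their count is a description. The interaction is the log2 change of C498+LPS against C498 minus that of LPS against NC, so a negative value means a smaller LPS step in the presence of C498. These 2 steps share no sample.

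Among chemokine and chemokine receptor genes it was -3.76 for Cxcl2, -2.68 for Ccl3, -2.56 for Cxcl10, -2.22 for Cxcl1, -2.19 for Ccl4, -1.44 for Ccl7 and -1.39 for Ccrl2. Cxcl2 rose by 6.22 log2 units with LPS alone and by 2.46 with LPS on top of C498 (C498 alone against NC: 4.28). For the cytokine genes it was -2.36 for Il6, -1.70 for Tnf and -1.36 for Il1b. For Il6 both LPS steps were large, at 7.77 and 5.41. Among mediator enzymes and secreted factors it was -3.34 for Ptgs2, -2.90 for Inhba, -1.96 for Edn1, which encodes endothelin-1, -1.95 for Nos2, -1.43 for Ptges and -1.35 for Serpinb2. Signaling and surface genes gave -2.35 for Pdgfrb, -2.16 for Gem, -1.84 for Rgs1, -1.33 for Hcar2, -1.08 for Traf1 and -1.001 for Cd14. The interferon-stimulated gene Rsad2 gave -1.54 and the cell cycle inhibitor gene Cdkn1a -1.14. Rgs1, a regulator of G protein signaling, changed sign, with an LPS step of 1.16 in vehicle and -0.68 in C498.

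A positive value was found in 4 genes. For the genes that LPS lowered, the kinase gene Mknk2 (1.24) and the fatty acid binding protein gene Fabp4 (1.08), the LPS step was smaller in size with C498: -2.47 and -1.23 for Mknk2 and -2.04 and -0.95 for Fabp4. Snora73a (4.75) and Rpl35a-ps6 (2.73) were listed at 0 in both NC and both LPS samples, so their values depend on the pseudocount and are no bound on a fold. They passed the filter on low values only through C498+LPS, so their interaction restates that presence and is no separate test.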

How the results depend on the processing

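Of all values recomputed for the 155 named genes, 2517 kept direction and side of the threshold, 60 were no longer past it, 25 newly passed it and 6 changed sign. The counts against NC, 1115 higher and 1104 lower, were 1903 and 3175 with no fold change threshold and otherwise stayed within 1.5 times. Leaving out each library gave 896 to 1459 higher and 958 to 1381 lower genes, and the balance turned with the NC library: 1459 higher and 992 lower without NC replicate 1, and 896 and 1381 without NC replicate 2. Centring samples on their median gene gave 1281 and 861. The 54 genes raised and 102 lowered at all 4 steps became 23 and 64 with no filter on low values, 31 and 29 when each step was fitted on its own groups only, 13 and 3 with a 2-fold threshold at each step, and 276 genes raised at all 4 steps and 485 genes lowered at all 4 steps with sample order in place of tests. Genes raised at all 4 steps numbered 85 when samples were centred on their median gene and 86 after quantile normalization. Leaving out each library gave 11 to 78 raised and 13 to 120 lowered genes. The causes of these shifts were not tested, except that fewer samples or groups leave fewer degrees of freedom.

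The sign changed for genes near 0: mt-Atp6, a mitochondrial gene, gave 0.0555 with centred samples and -0.30 to 0.23 when each library was left out, being above 0 without NC replicate 1 or C498+LPS replicate 1 (0.12). Rgs2 gave -0.10 to 0.27, being below 0 without NC replicate 2 or C498+LPS replicate 2 (-0.03), and Thbd gave -0.71 to 0.0172, being above 0 without C498+LPS replicate 1. A fit with the replicate number as a block gave 1131 higher and 1126 lower genes, with 72 raised and 126 lowered at all 4 steps. The numbers were not taken as a pairing, since the deviations of same-numbered samples correlated across genes at 0.0397 to 0.168 between groups. TPM keep no depth, so the precision of low values is unknown.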

Other observations

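Survival genes leaned to the higher side in C498+LPS. Of 23 tested, 9 were called higher and 1 lower (median log2 change 0.69). Of all tested genes, 9.15% were called higher and 9.06% lower. The cell cycle inhibitor gene Cdkn1a stood at 147 and 136 TPM in NC, 390 and 363 with LPS, 551 and 547 with C498, and 675 and 652 with C498+LPS (2.22), and Mdm2, the p53 inhibitor gene, went from 78.6 and 55.6 to 311 and 265 TPM (2.10). Both are targets of p53. The BCL2 family genes Bcl2a1d (2.06) and Bcl2a1b (1.71) also rose, though their reads may be shared among near-identical copies, and Bcl2l1 (-1.24) fell. Of 25 cell cycle genes, 4 were called higher, among them cyclin D2 (Ccnd2, 2.79), and 1 lower, Plk1 (-1.13), again beside 9.15% and 9.06% of all genes. Of 10 genes of cAMP and CREB feedback, 3 were called higher, the phosphodiesterase gene Pde4b (2.64), Rgs1 (1.86) and Crem (1.43), and Adcy7, an adenylyl cyclase gene, was called lower (-1.67).

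Metabolic lists had smaller medians than the survival list. Of 26 sterol and fatty acid synthesis genes, 4 were called higher, among them Scd1 (1.45) and Fasn (1.42), and Dhcr7 was called lower (-1.59), whereas of 17 genes in the KEGG pathway Steroid biosynthesis 4 were called lower and the rest were not called (median -0.17). Of 21 glycolysis and hypoxia genes, 5 were called higher, led by Adm (2.41) and Hk2 (1.37), although the list median was -0.16. Of 9 tested MHC class II presentation genes, 1 was called lower, H2-DMa (-1.003), which fell short of 2-fold when samples were centred on their median gene (-0.91) or quantile normalized (-0.89), without NC replicate 2 (-0.97) and without C498+LPS replicate 1 (-0.87). Of the other marker lists, mast cell genes (5 tested) and endothelial genes (2 tested) had no calls, with summed levels of 9.23 to 11.4 and 25.6 to 29.5 TPM in NC and 8.81 to 23.2 and 19.7 to 22.6 TPM in C498+LPS, and no eosinophil gene passed the filter on low values.

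Among KEGG pathways, read beside 9.15% higher and 9.06% lower of all genes, TNF signaling had 35 of 98 genes called higher and 3 lower (median 0.61). NF-kappa B signaling had 28 and 8 of 88 (0.35), JAK-STAT signaling 30 and 12 of 98 (0.13), and cytokine-cytokine receptor interaction 56 and 17 of 133 (0.48). In the last pathway 10 genes added up in the higher and 3 in the lower direction, beside 54 and 102 of all 12189 tested genes. MAPK signaling had 45 and 17 of 196 (0.10), NOD-like receptor signaling 29 and 16 of 146 (0.03), and Toll-like receptor signaling 19 and 4 of 78 (0.03). Chemokine signaling, which includes receptors and their downstream kinases, had 24 and 15 of 136 (-0.16). TGF-beta signaling had 13 higher and 2 lower of 63 (0.32), unlike the 12-gene response list, where 1 was higher and 3 lower. The lowest medians were those of Peroxisome (-0.64, 2 higher and 12 lower of 65), Fatty acid degradation (-0.59, 1 and 2 of 31) and Lysosome (-0.55, 1 and 13 of 115), against -0.15 for all genes. Oxidative phosphorylation (-0.34, 5 and 2 of 119) and Ribosome (0.02, 1 and 4 of 130) had few calls.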
